A study of Sus scrofa with 12 samples.

Results

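ACTA2, FAP, LUM and LOX are genes associated with the activated cardiac fibroblast, and they were followed here in the left ventricle of pigs. Members were the probe sets that the platform annotation pairs with one of these symbols. Each gene had 1 probe set, which gave 4 of the 27558 on the array (15233371 for ACTA2, 15239549 for FAP, 15290641 for LUM and 15266454 for LOX), and all 4 passed the filter on dim probe sets that kept 20668. In genes, these were 4 of the 12361 distinct symbols named there. Total RNA was hybridised to Affymetrix arrays, 3 in each of 4 groups: free wall of paced pigs (FW EXP), free wall of control pigs (FW CTL), septum of paced pigs (S EXP) and septum of control pigs (S CTL). Paced pigs had complete atrioventricular block made by ablation and a pacemaker in VDD mode, in which the atrium is sensed and the ventricle is paced. Control pigs were sham operated; the labels describe ventricular leads on the right ventricular septum and atrial leads in the right atrial appendage for all animals. The pigs were female and 13 months old, and tissue was taken 6 months after surgery. The series enrolled 12 pigs, 6 per treatment, of a strain not given in the sources used here, and which array came from which pig is not stated. The p-values below therefore measure the spread between these arrays.

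Cardiac fibroblasts make the collagen network of the heart wall. On injury, stretch or TGF-beta they can become myofibroblasts, which gain a contractile apparatus and lay down and stiffen matrix. ACTA2 encodes smooth muscle alpha-actin, the actin of myofibroblast stress fibres and also of vascular smooth muscle. FAP encodes fibroblast activation protein, a surface serine protease of the prolyl oligopeptidase family that activated fibroblasts carry. LUM encodes lumican, a small leucine-rich proteoglycan that binds collagen fibrils, and LOX encodes lysyl oxidase, the secreted enzyme that starts the cross-linking of collagen and elastin. In whole tissue, fewer cells of a type and less RNA per cell cannot be told apart.

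Across the groups, mean signals of LUM, FAP and ACTA2 were higher in paced than in control pigs in both regions, and those of LOX were lower, but none of the 4 genes was called. A call required a Benjamini-Hochberg adjusted p under 0.05 over all 20668 tested probe sets in limma, and 0 of the 4 members met it in any of the 6 comparisons made. Few probe sets did: between paced and control pigs, limma called 0.00484% of those tested in the free wall, 0.00968% in the septum and 0.00484% with the regions averaged. It called 0% for the difference between the pacing effects (2.75% at an unadjusted p under 0.05), and 0% for septum against free wall in paced pigs (6.73% unadjusted) and in control pigs (3.67% unadjusted). The control arrays numbered 1 had the lowest FAP and LUM signals of the 12 arrays and the highest LOX signals, so the differences of the 4 genes are also given without them. For ACTA2 they were the lowest of their own groups, and FW CTL array 1 equalled S CTL array 3. Leaving out the lowest control array must lower a paced minus control difference, and leaving out the highest must raise it. The direction of these shifts was thus fixed in advance, and the values without those arrays are no independent check.

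Array medians lay between 4.3 and 4.45 on the log2 scale. Control arrays 1 of the free wall and septum lay at 27.2 and 24.3 on the second principal component of all tested probe sets, where the other arrays lay between -16.3 and 7.8. FW EXP array 2 lay at -45.3 on the first component, against -19.2 to 22.3 in the rest, and had the lowest limma array weight (0.24). Of the cardiomyocyte markers, 4 of 8 were on the array, and their mean log2 signal was 11.9 to 12.06 in FW EXP, 11.93 to 12.02 in FW CTL, 12 to 12.05 in S EXP and 12.03 to 12.06 in S CTL. The labelled tissue was thus matched by abundant heart muscle transcripts.

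**Figure D1:**
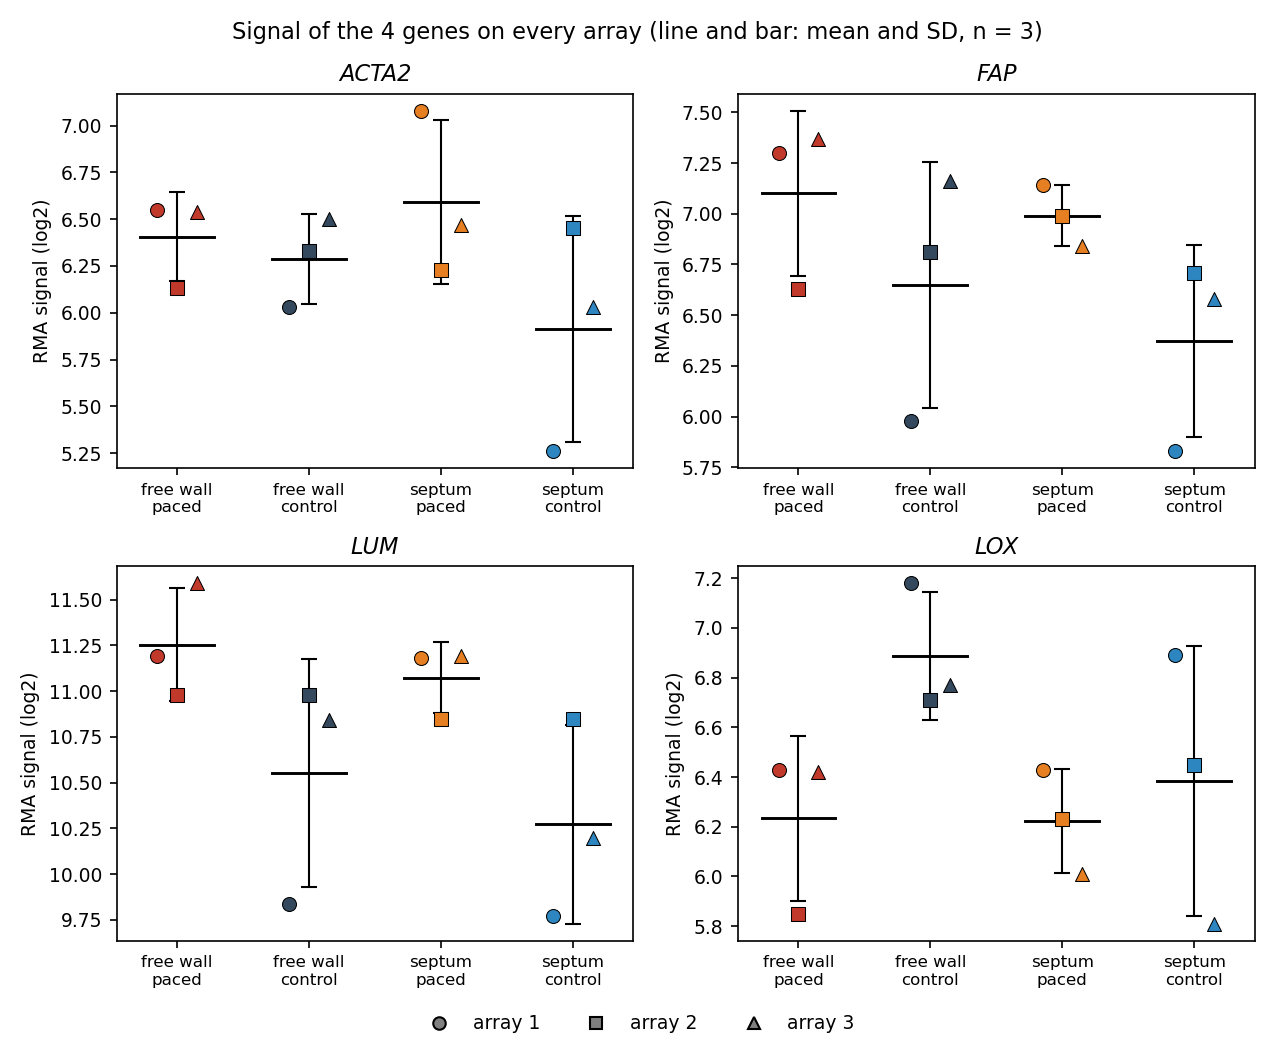
RMA signal on the log2 scale (vertical axes) of ACTA2, FAP, LUM and LOX on each of the 12 arrays; symbols give the array number, and lines and bars give the group mean and SD (n = 3). Control arrays 1 (circles) are the lowest of their group for ACTA2, FAP and LUM and the highest of their group for LOX.

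LUM, which coats collagen fibrils and influences their assembly, had the largest differences of the 4 genes on the higher side. Its log2 signals were 11.19, 10.98 and 11.59 in FW EXP arrays 1 to 3, against 9.84, 10.98 and 10.84 in FW CTL arrays 1 to 3. In the septum they were 11.18, 10.85 and 11.19 in S EXP arrays, against 9.77, 10.85 and 10.2 in S CTL arrays. In both regions the lowest paced array equalled the highest control array, and the remaining paced arrays were above all control arrays. Mean signal was 11.25 ± 0.31 in FW EXP and 10.55 ± 0.62 in FW CTL, and 11.07 ± 0.19 in S EXP and 10.27 ± 0.54 in S CTL (SD, n = 3 each). The log2 difference was 0.70 in the free wall (SE 0.32, 95% interval 0.01 to 1.39, 1.62-fold, limma adjusted p = 0.998). It was 0.80 in the septum (SE 0.32, interval 0.11 to 1.49, 1.74-fold, limma adjusted p = 0.992). Unadjusted p-values were 0.0481 and 0.0273, in comparisons in which 1.96% and 2.33% of all tested probe sets were higher at an unadjusted p under 0.05. Without the control arrays numbered 1, LUM differed by 0.34 in the free wall (interval -0.18 to 0.86) and by 0.55 in the septum (interval 0.03 to 1.07). The septal p was then 0.0408 before adjustment, where 1.58% of tested probe sets were higher at an unadjusted p under 0.05, and 1 after adjustment in limma.

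FAP, whose protease cleaves after proline and which is low in most resting tissue, had log2 signals of 7.3, 6.63 and 7.37 in FW EXP arrays 1 to 3, against 5.98, 6.81 and 7.16 in FW CTL arrays. The free wall groups overlapped, since FW EXP array 2 lay below both FW CTL arrays 2 and 3. In the septum the signals were 7.14, 6.99 and 6.84 in S EXP arrays, against 5.83, 6.71 and 6.58 in S CTL arrays. All S EXP arrays were above all S CTL arrays, as they were for 5.76% of all tested probe sets. The log2 difference was 0.45 in the free wall (SE 0.31, interval -0.23 to 1.13, limma adjusted p = 0.998) and 0.62 in the septum (SE 0.31, interval -0.06 to 1.30, 1.53-fold, limma adjusted p = 0.992). Without the control arrays numbered 1 these differences were 0.12 (interval -0.39 to 0.62) and 0.35 (interval -0.16 to 0.85).

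ACTA2 had log2 signals in the septum of 7.08, 6.23 and 6.47 in S EXP arrays 1 to 3, against 5.26, 6.45 and 6.03 in S CTL arrays. S EXP array 1 was the highest and S CTL array 1 the lowest of all 12 arrays, and the other arrays of both groups overlapped. In the free wall the signals were 6.55, 6.13 and 6.54 in FW EXP arrays, against 6.03, 6.33 and 6.5 in FW CTL arrays, and the groups overlapped. The log2 difference was 0.68 in the septum (SE 0.29, interval 0.05 to 1.31, 1.6-fold, limma adjusted p = 0.992) and 0.12 in the free wall (SE 0.29, interval -0.51 to 0.75, limma adjusted p = 0.998). Without the control arrays numbered 1 the septal difference was 0.35 (interval -0.21 to 0.92), and that of the free wall was -0.01 (interval -0.57 to 0.56). Leaving out S EXP array 1 gave 0.44 in the septum.

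Vascular smooth muscle and pericytes also contain ACTA2. Of 11 markers of these cells, 7 were on the array, and 6 of the 7 were above 0 in the free wall and 4 of 7 in the septum, with 0 called. Of all tested probe sets, 50.3% were above and 49.5% below 0 in the free wall, and 49.3% above and 50.3% below in the septum. Their mean log2 signal was 7.1 to 7.16 in FW EXP against 6.87 to 7.04 in FW CTL, and 7.04 to 7.14 in S EXP against 6.88 to 7.11 in S CTL. The free wall groups thus did not overlap on this list mean, and the septal groups did. CNN1, 1 of the 7, is also on the list of myofibroblast contractile genes. Its log2 signals were 5.84, 5.93 and 4.83 in FW EXP arrays 1 to 3, against 4.81, 5.08 and 5.13 in FW CTL arrays. No list mean without CNN1 is given, so the separation is not shown for the other markers. Of single tested probe sets, 3.63% were higher without overlap in the free wall, and no such share was computed for list means. With the control arrays numbered 1 left out, 5 of the 7 markers were above 0 in the free wall (median 0.04, against 0.14 with all arrays) and 4 of 7 in the septum (median 0.01, against 0.11). RGS5, a pericyte gene, had its lowest log2 signals in the control arrays numbered 1, at 10.07 in free wall and 10.03 in septum. Of the 7 markers, only 2 had both of those arrays below the other 10, as did 3.56% of all tested probe sets. The part of these cells in the ACTA2 values was not tested.

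LOX had mean signals on the lower side in paced pigs. Its log2 signals were 6.43, 5.85 and 6.42 in FW EXP arrays 1 to 3, against 7.18, 6.71 and 6.77 in FW CTL arrays. All FW EXP arrays lay below all FW CTL arrays, a separation in that direction that 4.52% of tested probe sets showed. In the septum the signals were 6.43, 6.23 and 6.01 in S EXP arrays, against 6.89, 6.45 and 5.81 in S CTL arrays, and the groups overlapped, with the lowest array of all 12 in the control group. The log2 difference was -0.65 in the free wall (SE 0.26, interval -1.22 to -0.09, 1.57-fold lower, limma adjusted p = 0.998), with an unadjusted p of 0.0265 where 2.59% of tested probe sets were lower at an unadjusted p under 0.05. In the septum it was -0.16 (SE 0.26, interval -0.72 to 0.40, limma adjusted p = 0.994). Without the control arrays numbered 1 the free wall difference was -0.51 (interval -1.04 to 0.02) and the septal difference 0.09 (interval -0.44 to 0.62). FW EXP array 2 had the second lowest LOX signal of the 12; without it the free wall difference was -0.46, and without it and the control arrays numbered 1 it was -0.32.

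Macrophage and monocyte markers had list means on the lower side on the same free wall arrays as LOX. Of 10 markers, 8 were on the array, and 6 of the 8 were below 0 in the free wall (median log2 difference -0.32) and 5 of 8 in the septum (median -0.05), with 0 called. The list mean was 4.93 to 5.16 in FW EXP against 5.28 to 5.45 in FW CTL, and 5.2 to 5.25 in S EXP against 5.03 to 5.44 in S CTL. With those control arrays left out, 6 of the 8 were below 0 in the free wall (median -0.28), whereas in the septum 6 were above and 2 below 0 (median 0.06). The list mean separated the treatments in the free wall and not in the septum. Of single tested probe sets, 4.52% were lower without overlap in the free wall, and no such share was computed for list means. Its part in the LOX values was not tested.

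**Figure D2:**
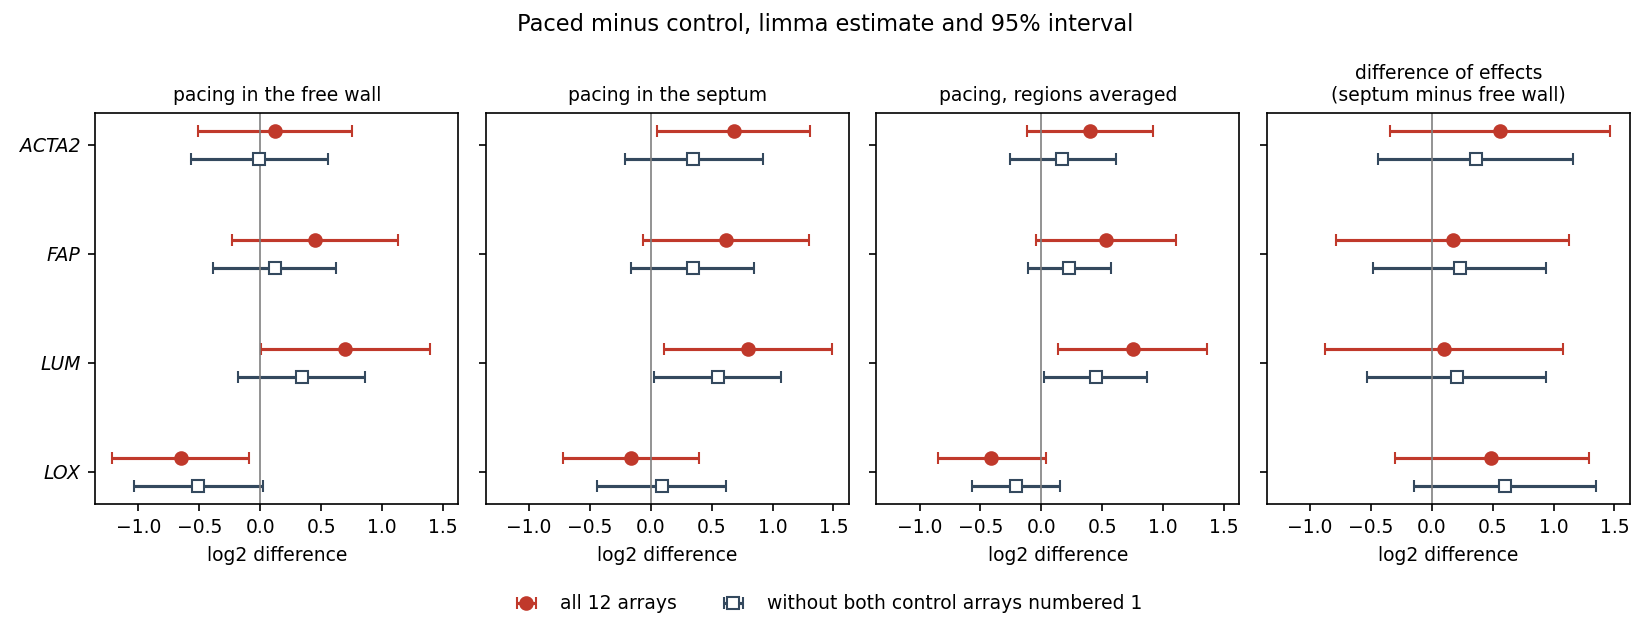
Log2 differences (horizontal axes) of the 4 genes between paced and control pigs, from limma with 95% intervals; filled circles use all 12 arrays and open squares leave out both control arrays numbered 1. The last panel gives the septal minus the free wall effect, and every interval there includes 0; without the control arrays numbered 1, only those of LUM in the septum and with the regions averaged exclude 0.

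Averaging the free wall and septum arrays of a treatment and number gave 3 paced and 3 control values per gene. The labels do not say that a number marks 1 pig, and same-numbered paced arrays did not deviate together, so these SDs are of averages by array number and not shown to be of animals. LUM averaged 11.16 ± 0.24 in paced and 10.41 ± 0.56 in control pigs (SD, n = 3 each), a log2 difference of 0.75 (SE 0.26, interval 0.14 to 1.36, limma adjusted p = 0.868). FAP averaged 7.04 ± 0.21 in paced and 6.51 ± 0.53 in control pigs, a difference of 0.53 (SE 0.25, interval -0.04 to 1.11, limma adjusted p = 0.908). For ACTA2 the means were 6.50 ± 0.32 in paced and 6.10 ± 0.40 in control pigs, and the difference was 0.40 (SE 0.22, interval -0.12 to 0.92, limma adjusted p = 0.945). LOX averaged 6.23 ± 0.20 in paced and 6.64 ± 0.38 in control pigs, a difference of -0.41 (SE 0.19, interval -0.85 to 0.04, limma adjusted p = 0.908). The SD was larger in control than in paced pigs for each of the 4 genes. Control number 1 was the lowest control value for ACTA2 (5.645), FAP (5.905) and LUM (9.805) and the highest for LOX (7.035). No SD without it is given, so these SDs do not show a wider spread among the other controls. Without control number 1 the differences were 0.45 for LUM (interval 0.02 to 0.87, limma adjusted p = 0.999, with 1.85% of tested probe sets higher at an unadjusted p under 0.05), 0.23 for FAP (interval -0.11 to 0.57), 0.17 for ACTA2 (interval -0.26 to 0.61) and -0.21 for LOX (interval -0.57 to 0.15).

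The series asked how septum and free wall differ in their alteration, and the contrast for it sets the septal pacing effect against that of the free wall. For ACTA2 the septal effect exceeded that of the free wall by 0.56 (SE 0.41, interval -0.34 to 1.46), and for LOX by 0.49 (SE 0.36, interval -0.30 to 1.29). LUM had a difference of effects of 0.10 (interval -0.88 to 1.08) and FAP one of 0.17 (interval -0.79 to 1.13). The limma adjusted p was 0.999 for each. Leaving out the control arrays numbered 1, the differences of effects were 0.36 for ACTA2 (interval -0.44 to 1.16), 0.60 for LOX (interval -0.15 to 1.35), 0.21 for LUM (interval -0.53 to 0.94) and 0.23 for FAP (interval -0.48 to 0.94). These intervals span more than 1 log2 unit, so neither an equal nor an unequal response of the regions was shown for these genes.

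Between the regions themselves, the 4 genes also did not pass. In paced pigs septum minus free wall was 0.19 for ACTA2 (interval -0.45 to 0.82), -0.11 for FAP (interval -0.79 to 0.57), -0.18 for LUM (interval -0.87 to 0.51) and -0.01 for LOX (interval -0.57 to 0.55). In control pigs it was -0.37 for ACTA2 (interval -1.01 to 0.26), -0.28 for FAP (interval -0.96 to 0.40), -0.28 for LUM (interval -0.97 to 0.41) and -0.50 for LOX (interval -1.07 to 0.06). All 4 genes were thus on the lower side in control septum, with LOX the farthest from 0. LOX stood at -0.61 there without the control arrays numbered 1 (interval -1.19 to -0.03), with an unadjusted p of 0.0418 and a limma adjusted p of 0.999. In that fit 1.25% of tested probe sets were lower at an unadjusted p under 0.05. The other values in control pigs were then -0.17 for ACTA2 (interval -0.79 to 0.44), -0.34 for FAP (interval -0.89 to 0.21) and -0.39 for LUM (interval -0.95 to 0.18). From the highest to the lowest group mean, the order was S EXP, FW EXP, FW CTL and S CTL for ACTA2; FW EXP, S EXP, FW CTL and S CTL for FAP and LUM; and FW CTL, S CTL, FW EXP and S EXP for LOX. Arrays of neighbouring groups in each order overlapped or met at the same value.

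**Figure D3:**
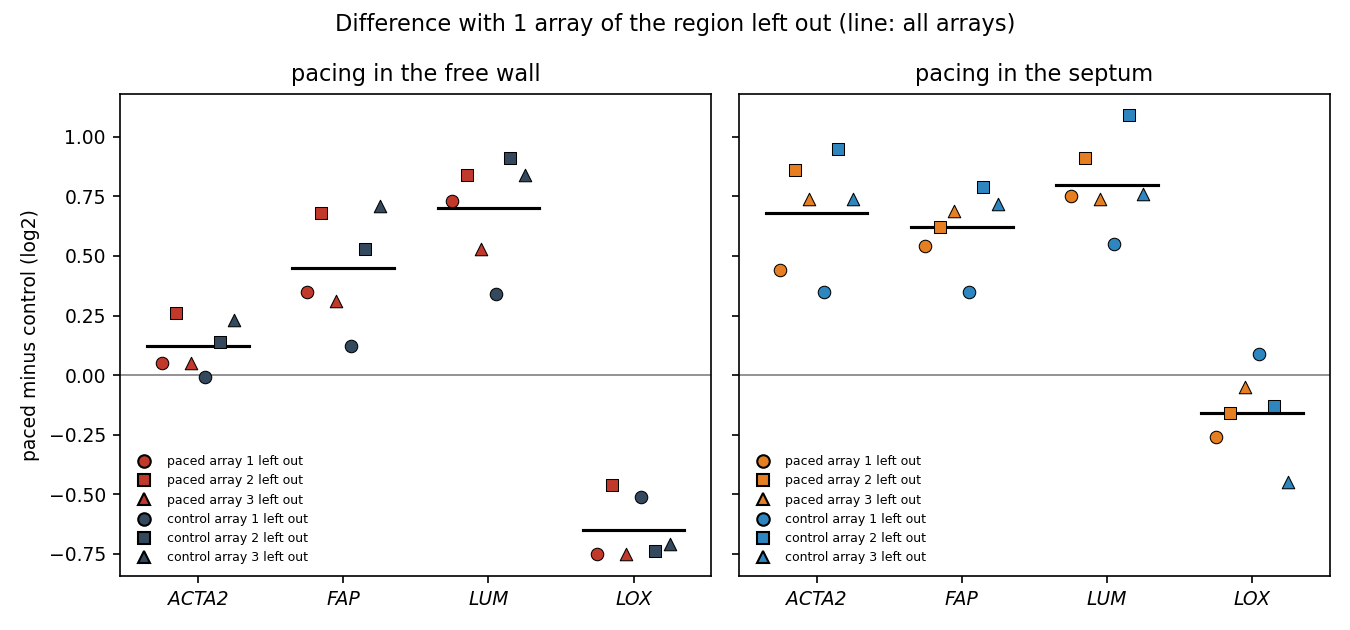
Paced minus control log2 difference (vertical axis) of each gene when 1 array of that region is left out; colour and symbol give the array, and the line gives the difference with all arrays. Leaving out control array 1 gives the lowest value for ACTA2, FAP and LUM in both regions, and in the septum it takes LOX from -0.16 to 0.09. That array is the extreme control of its group, so the direction of each of these shifts was fixed in advance.

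Single arrays carried much of these differences. Leaving out 1 array at a time, the LUM difference ranged from 0.34 to 0.91 in the free wall and from 0.55 to 1.09 in the septum, and the FAP difference from 0.12 to 0.71 and from 0.35 to 0.79. ACTA2 ranged from -0.01 to 0.26 in the free wall and from 0.35 to 0.95 in the septum. The LOX difference ranged from -0.75 to -0.46 in the free wall and from -0.45 to 0.09 in the septum. Its free wall groups did not overlap, so leaving out 1 array could not turn that difference. The lowest values of ACTA2, FAP and LUM in both regions, and the highest of LOX in the septum, came without control array 1. Within-group SDs were 0.41 for ACTA2, 0.44 for FAP, 0.45 for LUM and 0.36 for LOX, against a median of 0.20 over all tested probe sets, and 87.9% to 94.2% of tested probe sets had a smaller one than these genes.

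The members did not form one group across arrays. Pearson correlations over the 12 arrays were 0.90 between FAP and LUM, 0.82 between ACTA2 and FAP and 0.79 between ACTA2 and LUM, whereas LOX stood at -0.20 with ACTA2, -0.35 with FAP and -0.40 with LUM. Over the 10 arrays without the control arrays numbered 1 the first 3 were 0.69, 0.64 and 0.59, and those of LOX turned positive, at 0.51, 0.57 and 0.35. The negative sign of the LOX correlations was thus seen only with those 2 arrays included. They were the lowest for FAP and LUM and the highest for LOX, and no other arrays were left out for comparison. These are descriptions with no p, since arrays of both regions may share an animal and groups differ in their means.

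Genes with the most similar pattern over the 12 arrays were sought among 10732 tested probe sets with 1 symbol. For FAP they were CDH11, a cadherin of mesenchymal cells, GVIN1, FAM13C, the scaffold gene IQGAP1 and the membrane repair gene MYOF, with r from 0.95 to 0.96 (0.87 to 0.89 without the control arrays numbered 1). For LUM they were the vesicle coat gene CLINT1, PDIA3, a disulfide isomerase of the endoplasmic reticulum, CDH11 again, the phosphodiesterase PDE1A and the chromatin remodeller SMARCA1 (r 0.92 to 0.96, and 0.80 to 0.91 without those arrays). ACTA2 was most like FNBP1L, FAM26E, the myosin MYO9B, the matrix metalloproteinase MMP19 and CHST15, a sulfotransferase of chondroitin sulfate (r 0.87 to 0.92, and 0.69 to 0.92 without those arrays).

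LOX was most like C1QC, a chain of complement C1q that macrophages make, followed by NAA16, RRAGC, SIN3A and CARF (r 0.89 to 0.93, and 0.79 to 0.91 without the control arrays numbered 1). C1QC had log2 signals of 5.8, 5.15 and 5.61 in FW EXP arrays against 6.31, 6.15 and 6.02 in FW CTL arrays, and 5.96, 5.76 and 5.5 in S EXP arrays against 6.17, 5.83 and 5.51 in S CTL arrays. Its free wall groups were apart, as they were in that direction for 4.52% of tested probe sets, and its septal groups overlapped. All these genes were picked for their correlation with a member over the same arrays, so a course or a group separation shared with that member follows from the choice.

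**Figure D4:**
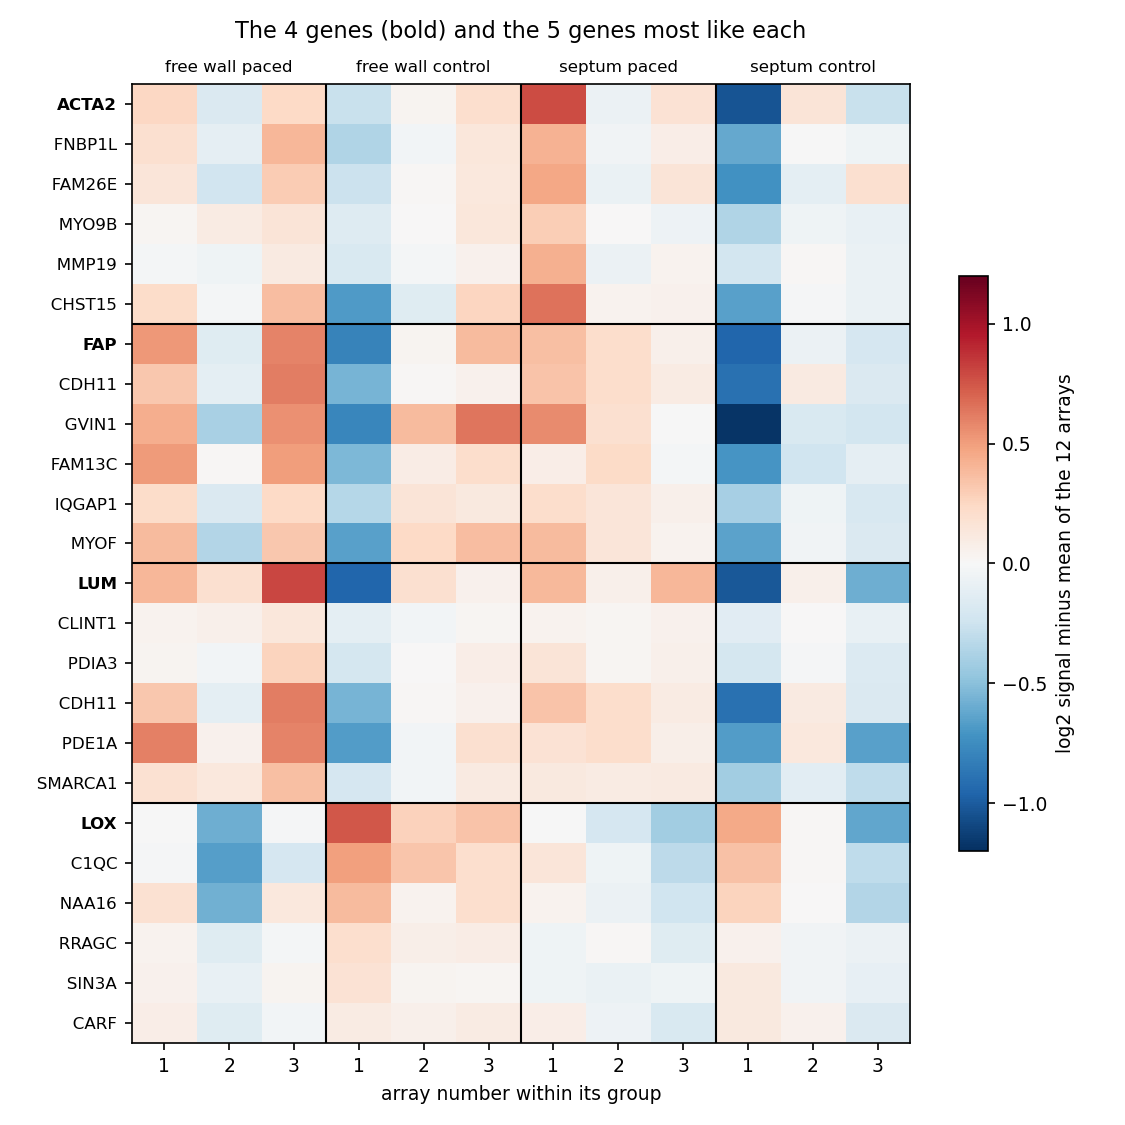
Log2 signal minus the mean of the 12 arrays (colour) for the 4 genes (bold) and the 5 genes most like each (rows), by array (columns, 3 per group). Rows of a block share the course of its bold gene because they were chosen for their correlation with it, from 0.87 to 0.96.

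Other genes of the fibroblast programme were grouped in 10 lists of 81 tested genes in all, each counted once. None was called for pacing in the free wall, the septum or the averaged regions (0 by limma in each), and 3 of the 81 had an unadjusted p under 0.05 with the regions averaged, where 5.55% of all tested probe sets did. The median over all tested probe sets was 0 in each of these comparisons, and with the regions averaged 48.9% lay above and 50.9% below 0. The values that follow are paced minus control log2 differences with the regions averaged, first with all arrays and then without control number 1.

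Among the contractile genes of the myofibroblast that accompany ACTA2, 7 of 12 were tested, 5 above and 2 below 0 (median 0.11, then 0). TPM2, a tropomyosin, stood at 0.26 (SE 0.11) and then 0.29, the smooth muscle actin-binding gene TAGLN at 0.38 (SE 0.22) and then 0.21, and CALD1, caldesmon, at -0.18 (SE 0.11) and then -0.15. TAGLN read 6.82 in S EXP array 1 and 5.42 in S CTL array 1, its highest value and its second lowest. Of the other actins, 3 of 5 were tested. ACTB stood at 0.44 (SE 0.24) and then 0.12, ACTC1 at 0.13 (SE 0.20) and then -0.12, and ACTA1 at 0 (SE 0.15) and then -0.06. Of 12 tested genes of TGF-beta and SRF signalling, the pathways that drive ACTA2, 9 were above and 3 below 0 (median 0.04, then 0.01), with TGFB1 at 0.16 (SE 0.16), TGFB3 at 0.11 (SE 0.17) and SRF at 0.17 (SE 0.12); they then stood at 0.01, -0.08 and 0.07.

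Secreted genes of activated fibroblasts split 8 above and 3 below 0 among the 11 tested (median 0.02, then -0.04). POSTN, periostin, stood at 0.35 (SE 0.44) and then -0.18, fibronectin FN1 at 0.15 (SE 0.19) and then -0.04, and the Wnt antagonist SFRP1 at 0.37 (SE 0.24) and then 0.14. POSTN read 5.74 in FW CTL array 1 and 5.58 in S CTL array 1, against 6.3 or more in the other 10 arrays. CTHRC1, a gene of activated matrix-producing fibroblasts, fell under the filter on dim probe sets. Among 12 tested genes listed as markers of resting fibroblasts, 6 were above and 6 below 0 (median 0, then -0.07). CD34 stood at 0.23 (SE 0.20) and then -0.01, the ferritin receptor SCARA5 at -0.33 (SE 0.24) and then -0.18, and S100A4 at 0.12 (SE 0.09) and then 0.15. S100A4 read only 2.76 to 3.25 on the log2 scale, near the filter at 3, and whether it marks resting cells here was not tested.

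Collagens, which LUM binds and LOX cross-links, were tested for 10 genes. Of these, 6 were above and 4 below 0 (median 0.17, then -0.05), and 5 of the 10 had both control arrays numbered 1 below the other 10 arrays. COL5A2 stood at 0.31 (SE 0.19) and then 0.10, COL1A1 at 0.30 (SE 0.23) and then 0.04, and COL14A1 at 0.28 (SE 0.16) and then 0.15. Over the 10 lists together, 15 of 81 genes (18.5%) had both of those arrays below the rest and 0 had both above, against 3.56% and 3.02% of all tested probe sets. Proteoglycans of the LUM family were 5 above and 1 below 0 among 6 tested (median 0.04, then -0.01), with ASPN, asporin, at 0.25 (SE 0.25) and then 0.36, biglycan BGN at 0.24 (SE 0.20) and then 0.03, and OMD at -0.08 (SE 0.14) and then -0.12.

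Among enzymes that cross-link and process collagen, the list nearest to LOX, 7 of 11 tested genes were above and 4 below 0 (median 0.01, then 0.05). PCOLCE2, an enhancer of procollagen C-proteinase, stood at -0.53 (SE 0.14, limma unadjusted p = 0.00574, adjusted p = 0.782) and then -0.55. In each region alone its difference was -0.53 with a wider SE of 0.28 (limma unadjusted p = 0.0887). The smaller SE rests on averaging by array numbers, which are not shown to mark animals. PLOD2, a lysyl hydroxylase of collagen, stood at 0.31 (SE 0.11) and then 0.22, and the transglutaminase TGM2 at 0.18 (SE 0.09) and then 0.14. PCOLCE2 was therefore nearly the same without control number 1. Its signals were 5.68, 4.62 and 5.06 in FW EXP against 5.5, 5.75 and 5.69 in FW CTL, and 4.69, 5.39 and 4.37 in S EXP against 5.38, 5.58 and 5.07 in S CTL, so that the groups overlapped in both regions. Of the elastic fibre genes, ELN, the gene of the elastin that LOX cross-links, had no matched probe set and was not tested. Among the 5 others tested, 3 were above and 2 below 0 (median 0.06, then 0.01). FBN1 stood at 0.09 (SE 0.19) and then -0.11, FBLN5 at -0.09 (SE 0.14) and then 0.06, and MFAP2 at 0.06 (SE 0.10) and then 0.01. In the prolyl oligopeptidase family of FAP, 1 of 4 tested genes was above 0 and 3 were below (median -0.05 both ways), with DPP4 at -0.09 (SE 0.14), DPP8 at -0.06 (SE 0.10) and PREP at 0.04 (SE 0.09), then -0.02, -0.11 and 0.07.

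**Figure D5:**
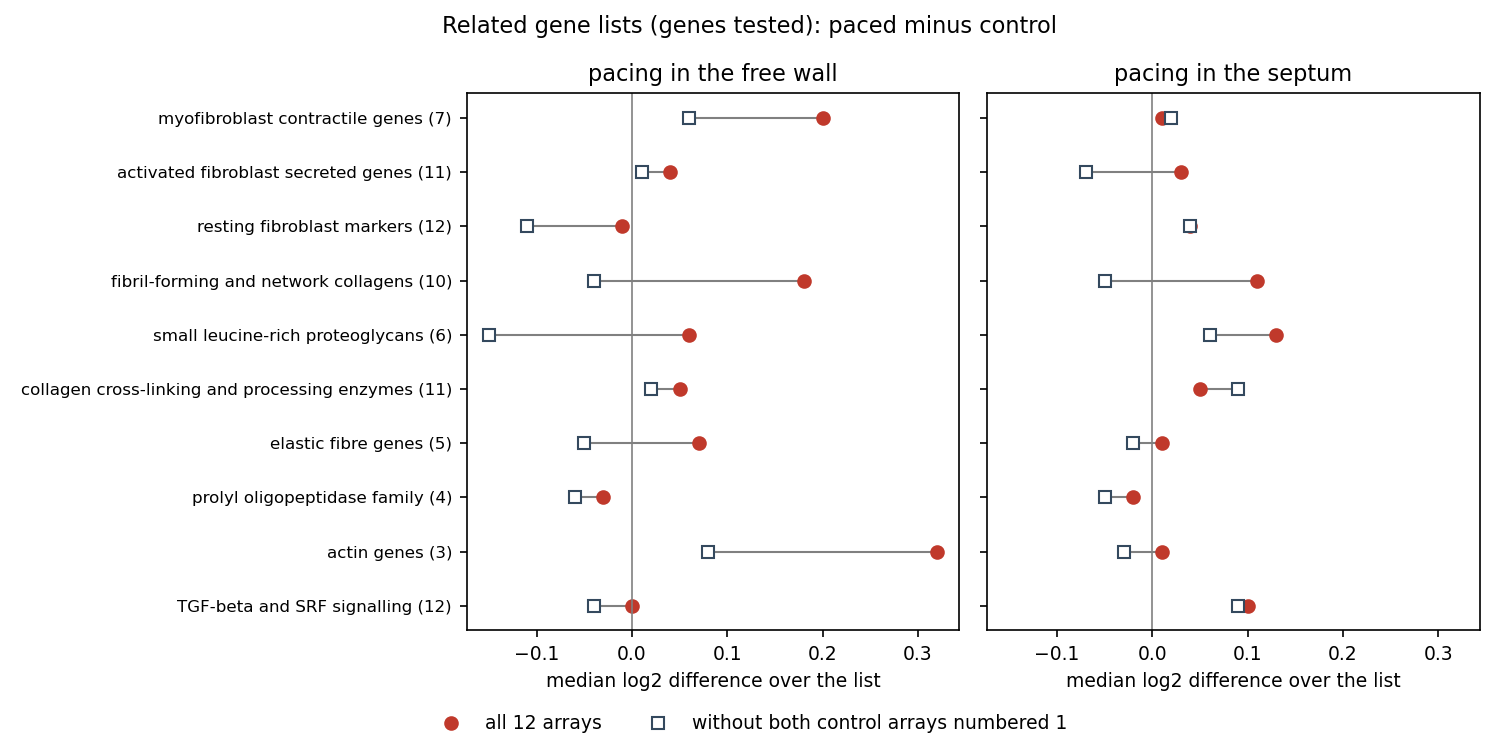
Median paced minus control log2 difference (horizontal axis) over each of the 10 lists related to the 4 genes, with the number of genes tested in brackets, in free wall and septum; circles use all 12 arrays and squares leave out both control arrays numbered 1. The median of the collagens goes from 0.18 to -0.04 in the free wall and from 0.11 to -0.05 in the septum when those arrays are left out.

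Markers of the remaining cell types had 0 calls for pacing in either region. Of the vascular endothelial markers 5 of 9 were tested, 2 above 0 in the free wall and 3 in the septum. Without the control arrays numbered 1, 1 of 5 was above 0 in the free wall (median -0.22, against -0.01 with all arrays). In the septum 2 of 5 then were (median -0.08, against 0.14). With all arrays the list mean was 6.17 to 6.6 in FW EXP against 6.05 to 6.58 in FW CTL, and 6.41 to 6.72 in S EXP against 6.21 to 6.63 in S CTL. Groups overlapped in each region for this list, as they did for lymphocyte, adipocyte, epicardial and mesothelial, Schwann cell and red blood cell markers and, within each region, for endocardial and lymphatic endothelial markers. The mean of that last list covers members of opposite sign. NPR3, a natriuretic peptide clearance receptor gene of the endocardium, stood at -0.59 with the regions averaged (SE 0.14, unadjusted p = 0.00376, limma adjusted p = 0.7) and at -0.47 without control number 1. CCL21, a chemokine gene of lymphatic endothelium, stood at 0.64 (SE 0.16, unadjusted p = 0.00461, limma adjusted p = 0.734) and then 0.53. The resting fibroblast list mean was 6.07 to 6.25 in FW EXP against 5.97 to 6.3 in FW CTL, and 5.94 to 6.2 in S EXP against 5.95 to 6.29 in S CTL.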

How the data were processed

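Total RNA was extracted with Trizol and labelled with biotin, per the labels. The deposited log2 values came from Affymetrix Expression Console 1.4 and RMA, per the submitters' processing notes. RMA subtracts background, gives the arrays 1 common distribution and combines the probes of a set. The build of the array is not given in the sources used here. Genes came from the platform annotation, with 13323 probe sets of 1 symbol, and 7 symbols were updated through RefSeq. A symbol repeated within 1 probe set counted once. The number of arrays limits precision.

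Probe sets in the lowest 25% by mean (up to 3 on the log2 scale) were left out. Group means over the 12 arrays entered limma 3.58.1 (R 4.3.3; two-sided), whose moderation added 3.68 prior to 8 residual degrees of freedom (3.82 to 4 for averaged regions), and Benjamini-Hochberg adjustment over 20668 probe sets. The code was tested on simulated data. A list gene was read from its probe set with the highest mean; 127 of 197 listed genes were tested.

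Always named were the 4 members, then up to 3 genes per pathway list with the smallest unadjusted p for averaged regions, and the 5 genes most correlated with each member. Gene neighbours, C1QC, POSTN, TAGLN and RGS5 signals, CTHRC1, NPR3 and CCL21 were picked after values were seen. Members and lists were chosen with earlier results of these data known. Deviations of same-numbered arrays from both regions correlated in control pigs (0.32, 0.25 and 0.24) and not in paced pigs (0.09, -0.17 and -0.18). Between same-numbered paced and control arrays of 1 region, which cannot share an animal, the correlations ran from -0.20 to 0.22. The values in control pigs therefore do not show that a number marks 1 pig. Alternatives covered the filter, scaling, variance model, array weights, arrays left out and pairing. Figures were drawn with matplotlib 3.10.9.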

Additional observations from a re-analysis of the deposited data

How the results depend on the processing

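The 4 genes gave 24 differences, which were refitted 492 times. Of these refits, 475 kept the direction, 17 turned it and 0 were called (limma adjusted p from 0.467 to 1). Part of the 475 were fixed in advance. Leaving out an array outside the groups compared, or changing only the variance model, leaves the difference as it was. The 475 is therefore no measure of how stable the directions are. With both control arrays numbered 1 left out, ACTA2 in the free wall turned to -0.01 and LOX in the septum to 0.09, and the cause was not tested. Leaving out FW EXP array 2 as well kept LOX in the septum at 0.09, since that array is not part of the septal comparison. With 1 array left out, ACTA2 ranged from -0.01 to 0.26 in the free wall and from -0.06 to 0.37 between the regions of paced pigs. LOX ranged from -0.45 to 0.09 for pacing in the septum and from -0.20 to 0.10 between the regions of paced pigs. FAP ranged from -0.34 to 0.03 between the regions of paced pigs and from -0.10 to 0.50 for the difference of effects, where LUM ranged from -0.15 to 0.46.

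With the regions averaged and control number 1 left out, ACTC1 turned to -0.12, CD34 to -0.01, DCN to -0.06, FBLN5 to 0.06, FBN1 to -0.11, FN1 to -0.04, LOC100525452 to 0.01, POSTN to -0.18 and TGFB3 to -0.08. With FW EXP array 2 also left out, ACTC1 stood at -0.16, COL1A1 at -0.03, DCN at -0.07, DPP4 at 0.02, FAS at 0.01, FBN1 at -0.07, POSTN at -0.04 and TGFB3 at -0.09. Array weights turned DCN to -0.04 and FBN1 to -0.05. Leaving out 1 number of 1 treatment gave ranges of -0.12 to 0.29 for ACTC1, -0.07 to 0.47 for ASPN, -0.18 to 0.04 for BTG1, -0.01 to 0.39 for CD34, -0.02 to 0.14 for CH25H, -0.06 to 0.18 for DCN, -0.19 to 0.06 for FBLN5, -0.11 to 0.25 for FBN1, -0.04 to 0.34 for FN1, -0.40 to 0.12 for IFIH1, -0.19 to 0.01 for LOC100525452, -0.16 to 0.08 for OMD, -0.18 to 0.83 for POSTN, -0.05 to 0.19 for STAMBPL1 and -0.08 to 0.24 for TGFB3.

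Over all tested probe sets, the count called for pacing in the free wall was 1; it was 2 with array weights, and 0 without the control arrays numbered 1, with the replicate block as a fixed term or with only the groups compared. For pacing in the septum it was 2; it was 4 without the control arrays numbered 1, and 1 with the fixed replicate block or only the groups compared. With 1 array left out the counts ranged from 0 to 1 in the free wall, from 1 to 4 in the septum, from 0 to 1 with the regions averaged and from 0 to 7 between the regions of paced pigs. For the regions of paced pigs the count was 0, and 1 with the fixed replicate block. In control pigs, a fit paired by array number with the replicate block left septum minus free wall at -0.37 (SE 0.19) for ACTA2, -0.28 (SE 0.19) for FAP, -0.28 (SE 0.15) for LUM and -0.50 (SE 0.20) for LOX, and it called 0 of them. That a number marks 1 pig is not shown. The block changed no call of the 4 genes. With 3 arrays per group and 1 probe set per gene, no second probe set could be set beside any of these values.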

Other observations

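Genes that neighbour the 4 genes in the RefSeq order of the Sscrofa11.1 assembly are given here as paced minus control log2 differences with the regions averaged. DCN, decorin, a proteoglycan of the same family that lies next to LUM, stood at 0.04 (SE 0.13), where LUM stood at 0.75. The next family members on the other side, KERA and EPYC, fell under the filter on dim probe sets. DPP4, a protease of the same family that lies 2 genes from FAP, stood at -0.09 (SE 0.14), and IFIH1, the RNA sensor gene on the other side of FAP, at -0.07 (SE 0.28). Beside ACTA2, the death receptor gene FAS stood at -0.27 (SE 0.19), STAMBPL1 at 0.08 (SE 0.15) and CH25H at 0.05 (SE 0.12). SNCAIP, next to LOX, stood at 0.40 (SE 0.17), LOC100525452, on the other side of LOX, at -0.10 (SE 0.14), and BTG1, on the DCN side of LUM, at -0.07 (SE 0.14). None of these was called by limma, and no difference between a neighbour and a member was tested. Across the 12 arrays the correlation with the member was 0.65 for IFIH1, 0.52 for DCN, 0.40 for CH25H, 0.09 for BTG1, -0.03 for LOC100525452, -0.09 for STAMBPL1, -0.13 for DPP4, -0.27 for SNCAIP and -0.50 for FAS, given as a description since arrays may share an animal.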
